A study of Macaca fuscata with 12 samples.

Results

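The genes described here encode the vacuolar proton pump (V-ATPase) and the proteases, glycosidases and membrane proteins of the lysosome, in the cerebral cortex of Japanese macaques (Macaca fuscata). They were chosen by gene symbol, as every probe set with a single symbol among the subunits ATP6V0 and ATP6V1, the accessory proteins ATP6AP1 and ATP6AP2, the cathepsins (CTS), LAMP1 to LAMP5, GBE1, HEXA, NPC1 and NPC2. This gave 46 of 52766 tested probe sets and 32 of 14132 genes. The pump was represented by 13 genes and 19 probe sets, of which 8 genes belonged to the V1 sector, 4 to the V0 sector and 1 was the accessory protein ATP6AP1. The lysosomal arm held 19 genes and 27 probe sets, with 13 cathepsins, the glycosidase subunit HEXA, and 5 genes of membrane proteins and cholesterol transport. ATP6V1A, ATP6V1B2, ATP6V1G2, ATP6V0A1, ATP6V0C, CTSB, CTSC, GBE1 and LAMP1 had no probe set with a single symbol and are not analysed here.

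The V-ATPase is a rotary motor. Its V1 sector, in the cytosol, splits ATP and turns a central stalk, and its V0 sector carries protons through the membrane of lysosomes, endosomes and synaptic vesicles. The low pH activates the cathepsins and other hydrolases of the lysosome, and in neurons the same proton gradient also loads transmitter into synaptic vesicles. Several subunits have isoforms that are best known from kidney, bone or testis, and several cathepsins are best known from blood cells.

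Total RNA from the left hemisphere was hybridised to 12 Affymetrix rhesus arrays, 3 in each of 4 groups. IPS trained and IPS control arrays held cortex around the intraparietal sulcus, from tool-use-trained and from control animals. SII trained and SII control arrays held cortex around the lateral sulcus that contains the secondary somatosensory area, again from both kinds of animal. The 8 animals were between 3 years 9 months and 6 years old, and 4 of them gave both regions, while the 3 arrays of each group came from different animals. SII trained 2 and SII control 1 came from females and the other 10 arrays from males. The labels do not say how long training lasted or what the control animals did, and the tissue was dissected cortex with all its cell types, so fewer cells of a type and less RNA per cell cannot be told apart. Marker genes of neurons (4 of 4 measured), astrocytes (5 of 5) and oligodendrocytes (3 of 3) had a high or middle signal, and 0 of 4 measured red blood cell markers did.

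Each value gives, in log2 units, the distance of a probe set from its own median across all 12 arrays. Such values show how a gene differs between arrays and not how strongly it is expressed, and levels of different genes cannot be compared. For genes with several probe sets the mean of the probe sets is given. A rough signal class was recovered from the spacing of the stored numbers: high (at least 256 before centring in at least 11 arrays), middle (at least 16), low, or floor, where at least 2 arrays carried 1 lowest value that is only an upper limit. Differences are trained minus control, or IPS minus SII, with the standard error (SE) of a limma fit over all genes, and the threshold was a Benjamini-Hochberg adjusted p of 0.05 over all genes. The hybridisation controls were raised in IPS trained 3 (0.44), SII trained 2 (0.49) and SII control 1 (0.47), against -0.14 to 0.08 in the other arrays. Between 3.63% and 9.75% of an array's probe sets were at the floor, whose own position varied by up to 1.67 log2 units from array to array.

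The members fell into a well measured and a poorly measured set. Of the 46 probe sets, 9 had a high signal, 19 a middle one, 12 a low one and 6 reached the floor. High signals were found for ATP6V1E1, a peripheral stalk subunit, for ATP6V1F, in the central stalk, for ATP6V1H, the regulatory subunit that couples the sectors, for ATP6V0B, a proton-carrying ring subunit, and for ATP6AP1. On the lysosomal side they were found for the cysteine proteases CTSF and CTSL. The isoforms best known from other tissues were ATP6V1B1, ATP6V0A4 and ATP6V1G3 (kidney), ATP6V0D2 (osteoclasts and kidney), ATP6V1C2 (kidney and lung), ATP6V1E2 (testis), CTSE (stomach), CTSG (neutrophils), CTSV (thymus and testis), CTSW (cytotoxic lymphocytes) and LAMP3 (mature dendritic cells). Of the 12 probe sets of these 11 genes, 0 had a high signal, 1 a middle one (CTSW), 6 a low one and 5 reached the floor. Of the 34 probe sets of the remaining 21 genes, 27 had a high or middle signal.

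The spread between arrays of 1 group followed the same division. The median SD within groups was 0.861 over the 11 isoforms best known from other tissues, with a range of 0.50 for CTSV to 1.37 for ATP6V1B1, and 0.254 over the remaining 21 genes, with a range of 0.118 for ATP6V1H to 0.735 for CTSH. By signal class, the median SD of the member probe sets was 0.186 (high), 0.310 (middle), 0.669 (low) and 0.981 (floor), against 0.232, 0.365, 0.777 and 1.03 over all tested probe sets of the same classes. In each class the members thus scattered slightly less than the array as a whole.

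**Figure D1:**
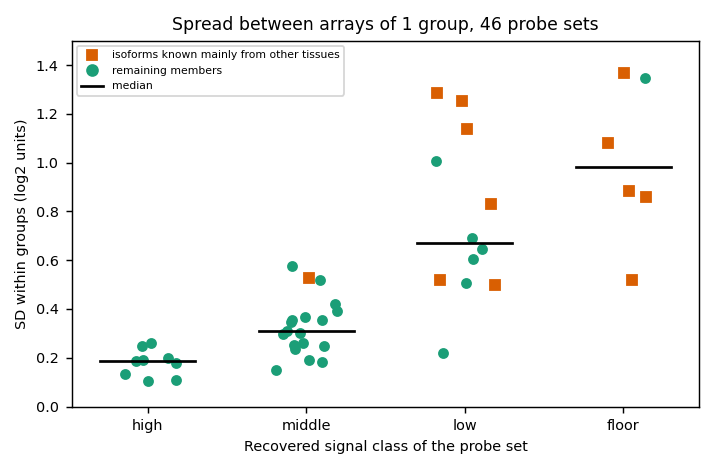
Spread between arrays of 1 group (pooled SD in log2 units, vertical axis) for each of the 46 probe sets, by recovered signal class (horizontal axis), with squares for isoforms best known from other tissues, circles for the remaining members and a line for the class median. The medians run from 0.186 for high to 0.981 for floor signals, and 11 of the 12 squares lie in the low and floor classes.

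No pump or lysosomal gene separated trained from control animals at the adjusted threshold in either region. In limma, 0 of 32 genes and 0 of 46 probe sets passed in IPS, where 0% of all genes passed. The same held in SII, where 0% of all genes passed, and for the difference between the training changes of the regions, with 0%. At an unadjusted p under 0.05 the fit gave 1 of 32 member genes in IPS, ATP6V1G3, against a background of 2.87% of all genes, and 1 of 32 in SII, CTSG, against 3.49%. For the difference between the regions it again gave 1 of 32, ATP6V1G3, against 3.28%. A share of 1 in 32 (3.12%) is near each of these backgrounds. Of the 46 member probe sets, 2 had an unadjusted p under 0.05 in IPS (ATP6V1G3 and CTSS, background 3.27%), 2 in SII (ATP6V0E1 and CTSG, 3.87%) and 2 for the difference between the regions (ATP6V1G3 and CTSS, 3.68%).

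The broadly used pump subunits differed little between trained and control animals. Over the 7 genes ATP6V1D, ATP6V1E1, ATP6V1F, ATP6V1H, ATP6V0B, ATP6V0E1 and ATP6AP1, the training difference ran from -0.18 to 0.10 in IPS and from -0.42 to 0.15 in SII. ATP6V1H was the tightest of all members. It lay at 0.10, 0.19 and 0.04 in IPS trained arrays, against -0.06, 0.17 and 0.04 in IPS control arrays, and at 0.06, -0.12 and 0.22 in SII trained arrays, against -0.19, -0.06 and -0.01 in SII control arrays. The groups overlapped in both regions. Its training difference was 0.06 ± 0.16 in IPS (SE, 95% interval -0.30 to 0.42) and 0.14 ± 0.16 in SII (-0.22 to 0.50), so a difference of more than about 0.50 log2 units in either direction lies outside both intervals.

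ATP6V0B, ATP6V1F, ATP6V1E1 and ATP6AP1 gave slightly wider intervals. ATP6V0B differed by 0.04 in IPS (95% interval -0.35 to 0.42) and by 0.01 in SII (-0.38 to 0.39). These are means of probe sets of opposite sign. Its middle-signal probe set gave -0.05 in IPS and -0.18 in SII, and its high-signal probe set gave 0.13 and 0.18. ATP6V1F differed by 0.10 in IPS (-0.31 to 0.50) and by 0.01 in SII (-0.40 to 0.41). ATP6V1E1 differed by 0.01 in IPS (-0.41 to 0.43) and by 0.15 in SII (-0.26 to 0.57). ATP6AP1, the accessory protein needed for assembly and targeting of the pump, differed by -0.18 in IPS (-0.60 to 0.24) and by 0.08 in SII (-0.35 to 0.50). The intervals of the other two subunits were wider still. ATP6V1D, the central rotor subunit, differed by 0.03 in IPS (-0.60 to 0.66) and by 0.08 in SII (-0.55 to 0.71), and ATP6V0E1 by -0.08 in IPS (-0.58 to 0.43).

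**Figure D2:**
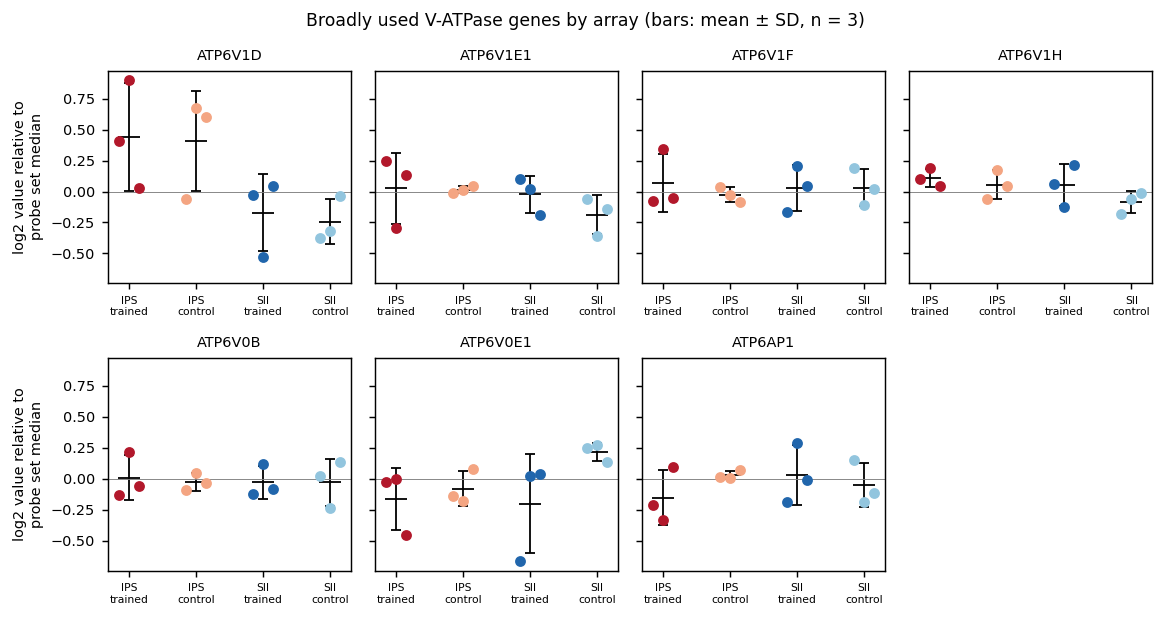
Log2 values relative to the probe set median (vertical axis) of the 7 broadly used V-ATPase genes in each of the 12 arrays, by group, with bars for the mean ± SD (n = 3). ATP6V1H, ATP6V1F and ATP6V0B lie between -0.24 and 0.34 in all 12 arrays, ATP6V1D is higher in most IPS arrays, and 1 low SII trained array sets the SII spread of ATP6V0E1.

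The smallest training p of the pump in SII belonged to ATP6V0E1, the small e subunit of the membrane sector. It lay at -0.66, 0.02 and 0.04 in SII trained arrays, against 0.25, 0.27 and 0.14 in SII control arrays. All 3 trained arrays lay below the 3 control arrays, mainly through SII trained 1, and the difference was -0.42 ± 0.23 (unadjusted p 0.0947 in limma). Groups did not overlap in this way for 1 of 32 member genes in SII, against 6.55% of all genes. The difference came from 1 low-signal probe set at -1.22, whereas the other probe sets of the gene, both of middle signal, differed by -0.12 and 0.07. With only high and middle signals used, it was -0.02. The difference between the training changes of the regions was 0.34 ± 0.31 (p 0.299).

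ATP6V1G3, a stalk subunit isoform of kidney intercalated cells, had the smallest p of the pump in IPS. It lay at 0.44, 0.46 and -0.19 in IPS trained arrays, against 0.79, 1.74 and 1.35 in IPS control arrays. All 3 trained arrays lay below the 3 control arrays, and the difference was -1.06 ± 0.39 (unadjusted p 0.0208 in limma). It was the only member gene whose groups did not overlap in IPS, against 8.37% of all genes. In SII it lay at -0.80, 0.10 and -0.10 in trained arrays, against -0.19, -1.56 and -0.64 in control arrays, a difference of 0.54 ± 0.39 (p 0.20). The SII values hold little order, because 2 of 3 SII trained and 3 of 3 SII control arrays lay at the floor, against 0 of 6 IPS arrays. The difference between the training changes of the regions was -1.60 ± 0.54 (unadjusted p 0.0132). With the floor raised to the same position in all arrays, an alternative chosen after seeing the data, the IPS difference was -0.96 and the SII difference 0.0020.

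The other pump isoforms best known from elsewhere varied too widely for the training differences to be placed. ATP6V0D2 lay at 0.91, 0.62 and -0.31 in IPS trained arrays, against 0.21, -0.39 and -0.60 in IPS control arrays. The groups overlapped, the difference was 0.64 ± 0.48 (p 0.213), and its probe sets gave 1.29, with 6 arrays at the floor, and 0.0026. Against the SII difference of -0.35 ± 0.48, the difference between the regions was 0.99 ± 0.66 (p 0.162). ATP6V1C2 differed by 1.19 ± 0.92 in IPS and by -1.04 ± 0.92 in SII. ATP6V1C2 lay at -1.22, 0.52 and 1.32 in IPS trained arrays, against 0.38, -1.75 and -1.47 in IPS control arrays, and at -1.89, 1.38 and -1.26 in SII trained arrays, against 1.08, 0.72 and -0.38 in SII control arrays. Both pairs of groups overlapped, and the difference between the regions was 2.24 ± 1.26 (p 0.104). ATP6V1B1 differed by -1.19 ± 0.96 in IPS and by -0.98 ± 0.96 in SII, with 5 of 12 arrays at the floor. ATP6V1E2 differed by 0.39 ± 0.91 in IPS and by 0.87 ± 0.91 in SII. With male animals only, which leaves out SII trained 2 and SII control 1, the SII value was 2.59 ± 0.62.

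**Figure D3:**
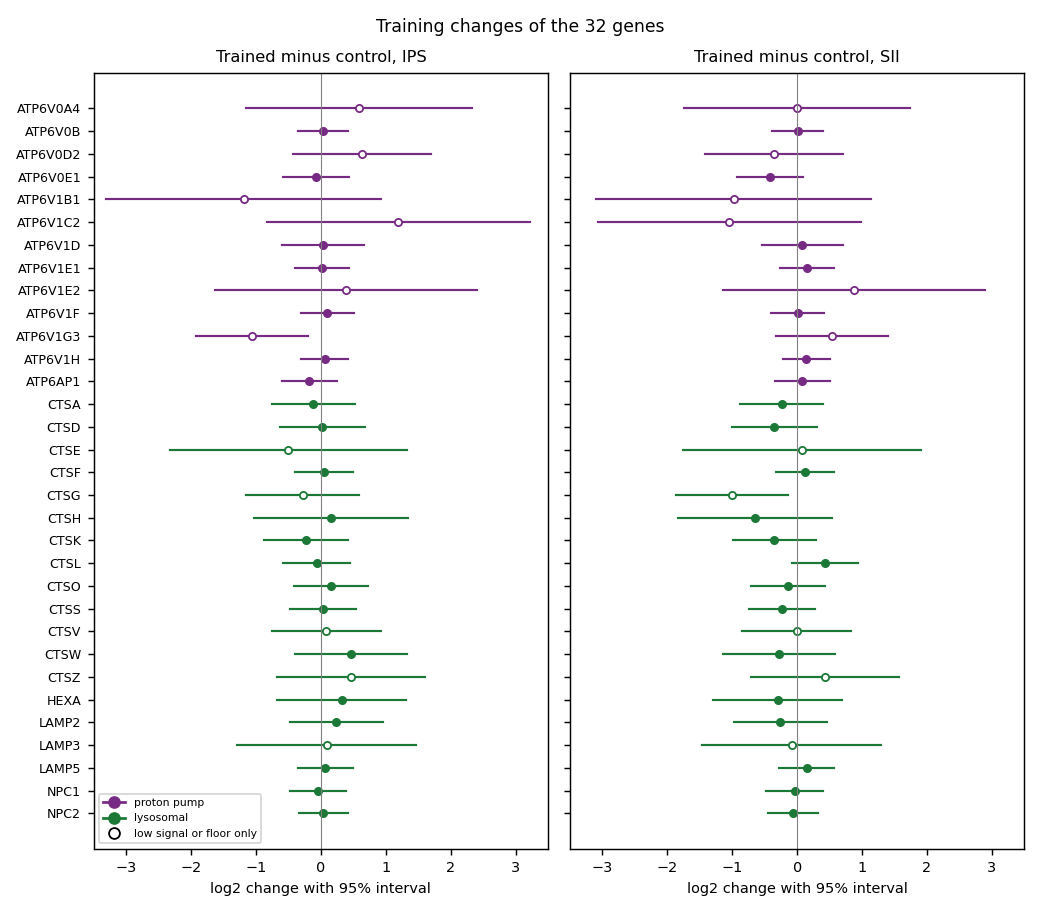
Training differences (trained minus control, log2 units, horizontal axis) with 95% intervals for the 32 genes in IPS (left) and SII (right), proton pump genes in purple and lysosomal genes in green. Open circles mark genes with only low or floor probe sets, among them ATP6V1B1, ATP6V1C2, ATP6V1E2, CTSE, ATP6V0A4 and LAMP3 with the widest intervals. The interval leaves out 0 for ATP6V1G3 in IPS and for CTSG in SII, and neither passed the adjusted threshold.

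Over the 14 lysosomal genes other than the isoforms best known from other tissues, the training difference in IPS ran from -0.23 (CTSK) to 0.47 (CTSZ, of low signal), with a median of 0.04. CTSD, the main aspartic protease of the lysosome, lay at -0.36, -0.22 and -0.18 in IPS trained arrays, against -0.20, -0.23 and -0.38 in IPS control arrays. These groups overlapped, with a difference of 0.02 ± 0.30 on average, but its probe sets, both of middle signal, gave -0.16 and 0.20. CTSL, a cysteine endoprotease, differed by -0.07 ± 0.23 in IPS, CTSF by 0.05 ± 0.20, and CTSA, the carboxypeptidase that protects beta-galactosidase and neuraminidase, by -0.12 ± 0.29. CTSO and CTSH differed by 0.16 ± 0.26 and 0.15 ± 0.53. CTSS, the protease of antigen-presenting cells and microglia, differed by 0.04 ± 0.23 on average, but its 4 probe sets gave 0.53, 0.17, -0.25 and -0.30. The probe set at 0.53, of low signal, had an unadjusted p of 0.0445.

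The smallest p of the lysosomal genes in IPS belonged to CTSW, a protease of cytotoxic lymphocytes. CTSW lay at -0.47, 0.07 and 0.74 in IPS trained arrays, against -0.90, -0.10 and -0.07 in IPS control arrays, a difference of 0.46 ± 0.39 (p 0.264), or 0.17 without IPS trained 3. CTSZ, a carboxypeptidase found in microglia, had 1 probe set, of low signal. It lay at 0.39, 0.07 and 0.94 in IPS trained arrays, against -0.07, 0.22 and -0.17 in IPS control arrays. The groups overlapped for both genes, and the CTSZ difference was 0.47 ± 0.51 (p 0.383), or 0.086 without IPS trained 3. CTSK, the collagen-cleaving protease of osteoclasts, differed by -0.23 ± 0.29 (p 0.443), and by -0.012 without IPS trained 1. The mean of 14 microglia and macrophage markers, 10 of them with a high or middle signal, was -0.191 to 0.03 in IPS trained arrays. In IPS control arrays it was -0.46 to -0.204, so the ranges lay only narrowly apart. Of the 14 markers, 10 were higher in IPS trained arrays and 4 lower. The means of AIF1 (-0.56 trained, -0.13 control) and CSF1R (-0.30, -0.08) were lower in trained arrays. CD74, an antigen presentation protein, differed by 1.19 (unadjusted p 0.0123 in limma). It was the only marker with such a p under 0.05 (1 of 14, against 2.87% of all genes). The part of microglia and macrophages in the cathepsin values was not tested.

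In SII, the median training difference of the cathepsins was -0.24 over 13 genes, 9 of them negative, against a median of 0.03 over all genes. That median depended on the probe sets and arrays used. It was 0.015 over the 9 cathepsins left by the signal filter, -0.013 with 1 probe set per gene and -0.042 without SII control 1. With male animals only it was -0.21, and without the 3 arrays with raised hybridisation controls -0.23. Both of these settings also left out SII control 1. For all 19 lysosomal genes the SII median was -0.14 with 14 negative, where 54.5% of all genes were positive, and it was -0.046 with 1 probe set per gene, -0.057 with the signal filter and -0.25 with quantile normalisation. In IPS it was 0.05 with 6 negative, where 54.6% of all genes were positive, and -0.072 without IPS control 1. These medians describe the list and carry no test. The gap between the 3' and 5' GAPDH probe sets, which follows RNA integrity, was separated by training in SII, at -0.23 to 0.77 in trained against -0.51 to -0.27 in control arrays. The same gap for actin overlapped, at -1.54 to 1.17 in trained against -1.87 to 0.25 in control arrays. The part of RNA integrity in the SII values was not tested.

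CTSG, a serine protease of neutrophil granules that is grouped here by its name, had the smallest SII training p. It lay at -1.37, 0.36 and -0.67 in SII trained arrays, against 0.01, 0.75 and 0.54 in SII control arrays. Trained arrays 1 and 3 lay below all controls and trained array 2 lay between them, and the difference was -1.0 ± 0.39 (unadjusted p 0.0276 in limma). With male animals only, which leaves out SII trained 2 and SII control 1, it was -1.68 ± 0.31, and without SII trained 1 it was -0.58. For the 6 measured markers of T cells and granulocytes the median difference in SII was 0.18, with 4 positive, and their mean was -0.11 to 0.46 in trained against -0.61 to 0.02 in control arrays. Among them NKG7, a granule protein of cytotoxic lymphocytes, differed by 2.70 ± 0.33 (adjusted p 0.101 in limma), with all 3 trained above all 3 control arrays. CTSL lay at 0.38, 0.19 and -0.22 in SII trained arrays, against -0.75, -0.06 and -0.14 in SII control arrays. The groups overlapped, and the low SII control 1 carried much of the difference of 0.43 ± 0.23 (p 0.0916), which was 0.18 with male animals only. In IPS CTSL lay at 0.21, -0.03 and -0.18 in trained arrays, against 0.09, 0.03 and 0.14 in control arrays, and these groups overlapped too.

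For the difference between the training changes of the regions, CTSL gave -0.50 ± 0.32 (p 0.147), CTSW 0.74 ± 0.54 (p 0.197) and CTSG 0.72 ± 0.54 (p 0.210). Without the 3 arrays with raised hybridisation controls, CTSL gave -0.18 and CTSW 0.29, and without SII trained 1 CTSG gave 0.24. CTSW lay at -0.48, 0.26 and 0.31 in SII trained arrays, against 0.88, -0.25 and 0.27 in SII control arrays. These groups overlapped as well. CTSD lay at -0.61, 0.68 and 0.22 in SII trained arrays, against 0.80, 0.24 and 0.32 in SII control arrays, a difference of -0.36 ± 0.30 (p 0.255). CTSS differed by -0.24 ± 0.23 in SII on average, but its 4 probe sets gave -0.24, -0.74, 0.41 and -0.36. CTSZ differed by 0.43 ± 0.51 in SII. CTSH, an aminopeptidase, and CTSK differed by -0.65 ± 0.53 and -0.35 ± 0.29 on average, but only through a probe set at the floor (CTSH, -1.47) and one of low signal (CTSK, -0.92), since the middle-signal probe set of each gene gave 0.18 for CTSH and 0.21 for CTSK.

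The glycosidase subunit and the membrane and cholesterol proteins gave training differences between -0.04 and 0.32 in IPS and between -0.30 and 0.14 in SII. HEXA, the alpha subunit of the hexosaminidase that degrades gangliosides, differed by 0.32 ± 0.45 in IPS and by -0.30 ± 0.45 in SII, and its middle-signal probe set gave -0.03 and -0.12. NPC1, which moves cholesterol out of the lysosome, differed by -0.04 ± 0.20 in IPS and -0.04 ± 0.20 in SII. NPC2, its soluble partner, differed by 0.04 ± 0.17 in IPS and -0.06 ± 0.17 in SII. LAMP5, a brain form of the lysosome-associated membrane proteins that marks some interneurons, differed by 0.07 ± 0.19 in IPS and 0.14 ± 0.19 in SII. LAMP2, a major protein of the lysosomal membrane, differed by 0.24 ± 0.32 in IPS and -0.26 ± 0.32 in SII, and the difference between these was 0.50 ± 0.45 (p 0.289). In SII its probe sets, both of middle signal, gave -0.54 and 0.02. For the difference between the regions they gave 0.78 and 0.21. The IPS value of LAMP2 came from IPS trained 1 at 0.82, with the other IPS trained arrays at 0.15 and -0.37, and it was -0.077 without that array.

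More member genes had a small p between the regions than with training, as did genes in general. IPS set against SII, averaged over training, gave an unadjusted p under 0.05 for 4 of 32 member genes (12.5%), against 10.7% of all genes. These were ATP6V1G3 and ATP6V1D, higher in IPS (2 of 32, against 4.28%), and CTSD and CTSO, lower in IPS (2 of 32, against 6.38%). Of the probe sets, 3 of 46 had such a p, against 9.26%, and 0 passed the adjusted threshold, against 0% of all probe sets. At the adjusted threshold 0 of 32 passed, against 0.0212% of all genes (3 genes), and the smallest adjusted p of a member was 0.247. For 0 of 32 genes did the 6 IPS arrays stay clear of the 6 SII arrays, against 1.09% of all genes. The labels name the IPS arrays in another way than the SII arrays, so region and a possible hybridisation batch cannot be told apart. The gap between 3' and 5' actin probe sets was -1.54 in SII trained 3, -1.87 in SII control 2 and -1.71 in SII control 3. It was 0.25 to 1.17 in the other SII arrays and -0.79 to 1.37 in IPS arrays. For GAPDH the regions overlapped, at -0.24 to 0.89 in IPS and -0.51 to 0.77 in SII. The part of RNA integrity in the regional values was not tested.

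**Figure D4:**
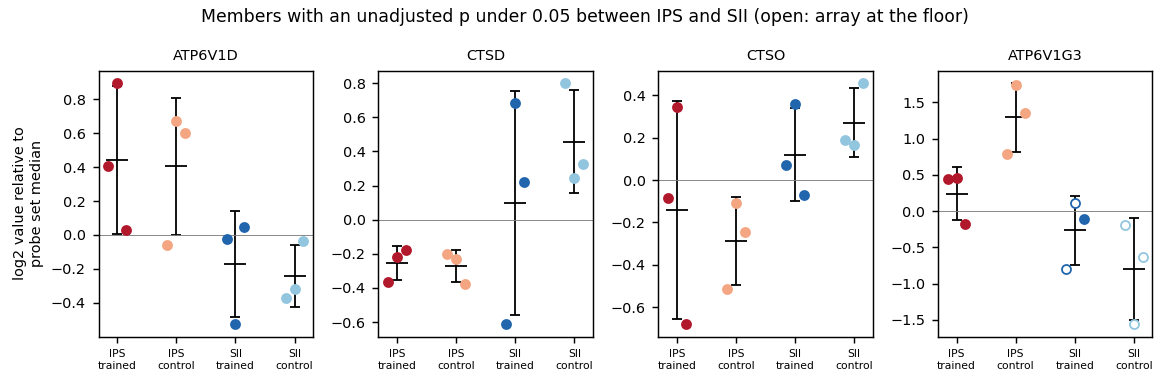
Log2 values relative to the probe set median (vertical axes, scaled per gene) of the 4 members with an unadjusted p under 0.05 between IPS and SII, in each array by group, with bars for the mean ± SD (n = 3) and open circles for arrays at the floor. ATP6V1D and ATP6V1G3 are higher in most IPS arrays and CTSD and CTSO in most SII arrays, the regions overlap for each gene, and 5 of 6 SII arrays of ATP6V1G3 are at the floor.

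ATP6V1D, which transmits the turning force of the motor, was the broadly used pump gene with the largest difference between regions. It lay at 0.40, 0.90 and 0.03 in IPS trained arrays and -0.06, 0.67 and 0.60 in IPS control arrays, against -0.03, -0.53 and 0.04 in SII trained arrays and -0.38, -0.32 and -0.03 in SII control arrays. Of the 6 IPS arrays, 4 lay above every SII array and 2 lay among them. The mean was 0.42 ± 0.38 in IPS and -0.21 ± 0.23 in SII (SD, n = 6 arrays each), and the difference was 0.61 ± 0.20 (SE, unadjusted p 0.00988, adjusted p 0.373 in limma). With animal as a fixed term, which rests on the 4 animals that gave both regions, it was 0.35. The other 6 broadly used pump genes differed between regions by -0.13 (ATP6V0E1) to 0.13 (ATP6V1E1).

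ATP6V1G3 gave the smallest p between regions of all members. Its mean was 0.77 ± 0.69 in IPS and -0.53 ± 0.61 in SII (SD, n = 6 arrays each), and the difference was 1.31 ± 0.27 (SE, unadjusted p 0.000569, adjusted p 0.247). Only IPS trained 3 reached down to the SII arrays. With the floor at the same position in all arrays the difference was 0.71. ATP6V0A4, a kidney isoform of the membrane sector, differed by 0.53 ± 0.54 (p 0.350) with 2 arrays at the floor.

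CTSD was the lysosomal gene with the smallest p between regions. All 6 IPS arrays, given above, lay between -0.38 and -0.18, and 5 of the 6 SII arrays lay at 0.22 or higher, with SII trained 1 as the exception at -0.61. The mean was -0.26 ± 0.09 in IPS and 0.28 ± 0.50 in SII (SD, n = 6 arrays each), and the difference was -0.52 ± 0.20 (SE, unadjusted p 0.0265, adjusted p 0.418). Both probe sets of CTSD were lower in IPS, by -0.62 (unadjusted p 0.0183 in limma) and -0.44 (p 0.186). Each alone spread more over the 6 IPS arrays than their mean, with an SD of 0.30 and 0.43. They had opposite signs in IPS trained 3 (-0.77 and 0.42) and in IPS control 3 (0.08 and -0.83). With male animals only the difference was -0.30, and with animal as a fixed term -0.29. CTSO, a little studied cysteine protease, lay at -0.08, 0.34 and -0.68 in IPS trained arrays and -0.52, -0.11 and -0.24 in IPS control arrays, against 0.07, 0.36 and -0.07 in SII trained arrays and 0.19, 0.17 and 0.46 in SII control arrays. The regions overlapped through IPS trained 2, and the difference was -0.42 ± 0.18 (unadjusted p 0.0392), or -0.25 without the 3 arrays with raised hybridisation controls.

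The remaining lysosomal genes had an unadjusted p above 0.05 between regions. LAMP3, whose probe set reached the floor, gave 0.50 ± 0.43 (p 0.269), or 0.15 with the floor at the same position in all arrays, and CTSE gave -0.40 ± 0.57 (p 0.499). NPC1 gave 0.20 ± 0.13 (p 0.172) and CTSV -0.33 ± 0.26 (p 0.235). CTSL, CTSS, CTSZ, LAMP2, NPC2 and HEXA gave 0.14, -0.02, 0.02, -0.02, 0.01 and -0.17. The probe sets of LAMP2 gave -0.20 and 0.17, those of HEXA -0.45 and 0.11, and those of CTSS ran from -0.14 to 0.26. LAMP5 lay between -0.17 and 0.19 in the IPS arrays and between -0.23 and 0.19 in the SII arrays. The regional median was 0.09 over the 13 pump genes and -0.02 over the 19 lysosomal genes, against -0.02 over all genes.

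Microglial markers lay lower in IPS, as CTSD did. CTSS and CTSZ, also named above for microglia, differed by -0.02 ± 0.16 and 0.02 ± 0.35 (SE). The 4 probe sets of CTSS gave -0.05, -0.14, -0.14 and 0.26, and the only probe set of CTSZ had a low signal. Of 14 measured markers of microglia and macrophages, 13 were lower in IPS, with a median difference of -0.27. C1QB (-0.70), CSF1R (-0.58) and AIF1 (-0.45) were lower at an unadjusted p under 0.05 (3 of 14, against 6.38% of all genes). The mean of the list was -0.19 to 0.03 in IPS trained and -0.46 to -0.20 in IPS control arrays, against 0.11 to 0.17 in SII trained and -0.05 to 0.24 in SII control arrays. For SII trained 1, the lowest array for CTSD at -0.61, the mean of the list lay within the SII trained range of 0.11 to 0.17. CD68 and LAPTM5 in this list are themselves lysosomal membrane proteins. The part of microglia in the CTSD values was not tested.

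Further genes of the lysosomal and pump pathway behaved like the members. Of 64 such genes measured, 0 passed the adjusted threshold in any comparison. At an unadjusted p under 0.05 there were 0 in IPS, against 2.87% of all genes, and 2 in SII, against 3.49%. Both were lower in trained animals, namely GNPTAB (-1.25), the enzyme that begins the mannose phosphate tag of lysosomal hydrolases, and FLCN (-0.52), a regulator of nutrient signalling at the lysosome. For GNPTAB the difference between the regions was 2.05, the only value past an unadjusted p of 0.05 for that comparison (1 of 64, against 3.28% of all genes). Between regions there were 7 of 64, near the background of 10.7% of all genes. The lysosomal hydrolases SMPD1 (-0.69), ARSA (-0.66) and LGMN (-0.65), the membrane protein CLN3 (-0.63) and the tethering factor VPS39 (-0.34) were lower in IPS (5 of 64, against 6.38%). The hydrolase GGH (0.38) and VMA21 (0.38), an assembly chaperone of the V0 sector, were higher in IPS (2 of 64, against 4.28%).

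The arrays differed in how often they held the lowest or highest value of a member. SII control 2 was the lowest of the 12 arrays for 8 of the 32 genes and the highest for 3, and SII trained 1 was the lowest for 5 and the highest for 4. IPS control 2 held the lowest value of 0 genes and the highest of 1. Whether these counts are particular to the members or hold for all genes was not tested. Over the 7 pump genes with a high or middle signal, the array median ran from -0.19 in SII control 2 to 0.19 in IPS trained 2. Over the 14 lysosomal genes of that kind it ran from -0.13 in IPS control 1 to 0.15 in SII control 1.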

How the data were processed

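Expression was measured on 12 arrays. The deposited values are on a log2 scale, and the authors centred every probe set on its own median across arrays. The sources used here state neither the log base, which the size of the values gave, nor how arrays were scaled. Per the submitters' processing notes MAS5 was the tool, and no version is given. Of 52865 probe sets, 99 controls were left out. The array's gene table, which can be old, gave 1 symbol to 24956, several to 361 and none to 27449, and genome coordinates were not used here. ATP6V1F and ATP6V1H each have a pair of probe sets designed on the same target.

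The fit used limma (version 3.58.1, in R version 4.3.3 beside statmod version 1.5.0) with a mean for each of the 4 groups, no further normalisation, the correlation between arrays of 1 animal (0.0474 over probe sets, 0.0862 over genes), eBayes moderation and Benjamini-Hochberg adjustment over all features. Tests were 2-sided, and the fit was tested on simulated data. The exact permutation p of 3 arrays against 3 cannot go below 0.10, so the fit carries the tests. The signal classes were needed because centring removes levels, and no filter on levels was applied. Replicate numbers did not pair the arrays, with correlations of same-numbered arrays of -0.20 to 0.06, and the number was kept out of the main fit.

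The members and lists were chosen with earlier results of these data known. Some further lysosomal genes of the selection, with no probe set of a single symbol, are not reported here. In each comparison the 4 genes of each arm with the smallest p were named, with values in every array for the first 2, and CTSD, CTSL, CTSS, CTSZ, ATP6V1H, HEXA, LAMP2, LAMP5, NPC1 and NPC2 were always named. Alternatives changed the scaling, the array weights and the treatment of sex and animal, added the replicate block, left out each array, the females or the arrays with raised hybridisation controls, or used a common floor, a signal filter, 1 probe set per gene or each region alone. The number of arrays limits the precision.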

Additional observations from a re-analysis of the deposited data

How the results depend on the processing

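No member gene or probe set passed the adjusted threshold under any of the 25 settings tried, and the smallest adjusted p of a named gene was 0.1. Of 744 alternative values of named genes, 738 kept their direction. Of the 32 named differences, 29 moved by over 1.5 times under at least 1 alternative. With 1 probe set per gene the IPS training difference of ATP6V0D2 was -0.037, and the SII differences of CTSH and CTSK were 0.17 and 0.21. With the signal filter CTSH and CTSK gave 0.17 and 0.21, and LAMP2 ran from -0.077 (without IPS trained 1) to 0.59 (without IPS trained 3) in IPS.

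Counts past the adjusted threshold over all features were small and moved easily. For IPS against SII, 3 genes passed. With animal fixed, a common floor, no animal correlation, sex as a covariate, the signal filter, or without the 3 arrays with raised hybridisation controls it was 0 genes, and with male animals only, quantile normalisation or the replicate block it was 1 gene. Leaving out single arrays gave 0 to 9 genes, and 0 to 14 probe sets, where the full data gave 0. SII trained 3 left out gave both upper ends. Probe sets numbered 1 with the common floor, 5 with quantile normalisation and 2 with sex. For SII training, quantile normalisation gave 2 genes and 1 probe set, array weights, common floor and sex gave 2 probe sets each, the signal filter gave 1, and leaving out arrays gave 0 to 4 genes and 0 to 3 probe sets. For IPS training leaving out arrays gave 0 to 1 genes and 0 to 2 probe sets. For the difference between the regions, leaving out the 3 raised arrays gave 1 probe set and single arrays 0 to 2.

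The regional median of the pump genes was 0.24 with animal fixed, against 0.09. Their SII training median was 0.14 without the 3 raised arrays, against 0.01, and their median difference between the regions ran from -0.14 to 0.17 as single arrays were left out. The replicate block changed no other call. The cause of these shifts was not tested. Low and floor signals limit 18 of the 46 probe sets.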
